A study of Mus musculus with 12 samples.

Results

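The genes described here encode 9 enzymes that turn squalene into cholesterol: *Sqle*, *Lss*, *Cyp51*, *Msmo1*, *Nsdhl*, *Hsd17b7*, *Ebp*, *Sc5d* and *Dhcr7*. They were chosen by symbol for their place in the pathway, with earlier results of these data known, and all 9 were found among the 10697 genes measured. The cells were primary mouse adult fibroblasts (MAFs) of wild-type C57BL6/j mice, grown out of tissue pieces in serum-rich medium. They received either 100 µM thymol, a phenolic monoterpene of thyme and oregano, dissolved in DMSO, or the same volume of DMSO alone, for 24 h, with 6 libraries per group. The labels do not say whether libraries of a group came from separate mice or cultures, so the spread between them may be technical. Transcripts were read by QuantSeq, which sequences the 3′ ends of polyadenylated RNA, so that each transcript yields about 1 read however long it is.

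Cholesterol synthesis begins with acetyl-CoA and passes through mevalonate to squalene, an open-chain intermediate. The post-squalene enzymes sit in the endoplasmic reticulum, oxidise and close the chain into lanosterol, strip lanosterol of its extra methyl groups and then move and remove double bonds until cholesterol is formed. Their genes are classical targets of the sterol regulatory element-binding proteins (SREBPs), membrane-held transcription factors that are released when sterols in the endoplasmic reticulum are low and that act together with the promoter-binding factors NF-Y and SP1. Inherited defects of *NSDHL*, *EBP*, *SC5D* and *DHCR7* cause malformation syndromes in which sterol intermediates accumulate.

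Because NF-Y is a partner of the SREBPs, promoter windows were searched for its box and for boxes of SP1 and the SREBPs. The windows ran from 250 bases before to 50 bases after each RefSeq transcription start (assembly GRCm38.p6), and 8 of the 9 genes had an entry in the table of windows used, the exception being *Sqle*. The 30 bases around the NF-Y box nearest upstream of a start are shown for these 8 genes, 5′ to 3′ on the strand of the gene, with the box in capitals (CCAAT, or ATTGG where it lies on the opposite strand).
Lss (chr10:76531530-76531559, plus strand): tggtgatgctctgATTGGccgagctcgcat
Cyp51 (chr5:4104710-4104739, minus strand): ccgctgtccgccaCCAATctggtcctgaga
Msmo1 (chr8:64733617-64733646, minus strand): ggagtggggcggaCCAATtacgacaggcga
Nsdhl (chrX:72918488-72918517, plus strand): aaagactagcctcATTGGgcaaaatcatgc
Hsd17b7 (chr1:169969201-169969230, minus strand): gggccgagccttgATTGGtcgaggtgcgcg
Ebp (chrX:8193551-8193580, minus strand): gatccctgtactgATTGGttcgtcagattc
Sc5d (chr9:42264308-42264337, minus strand): gcgccggctgctgATTGGccggctgcctgc
Dhcr7 (chr7:143830152-143830181, plus strand): aaatccacttccgATTGGtcgtctgtgacc
The box read ATTGG in 6 of the genes and CCAAT in *Cyp51* and *Msmo1*. Counted in bases from the RefSeq start, its first base lay at -12 in *Hsd17b7*, -20 in *Nsdhl*, -24 in *Sc5d*, -29 in *Cyp51*, -49 in *Dhcr7*, -55 in *Msmo1* and *Ebp* and -62 in *Lss*. The boxes of *Lss*, *Nsdhl*, *Ebp* and *Sc5d* lay outside the genes as drawn in GENCODE vM21, whereas those of *Cyp51*, *Msmo1* and *Hsd17b7* lay just inside them, and that of *Dhcr7* belonged to the third of its 3 RefSeq starts, within the gene.

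Longer stretches are shown for the pair of genes with the largest differences, *Nsdhl* and *Hsd17b7*. Both lie upstream of every annotated start and end at the start of a gene on the other side, with NF-Y boxes, SP1 boxes (GGGCGG or CCGCCC) and, in *Hsd17b7*, an E-box (CACGTG) in capitals.
Nsdhl (chrX:72918412-72918520, plus strand): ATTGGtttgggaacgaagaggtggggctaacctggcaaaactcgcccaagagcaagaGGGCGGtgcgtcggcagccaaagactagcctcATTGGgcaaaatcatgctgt
Hsd17b7 (chr1:169969242-169969408, minus strand): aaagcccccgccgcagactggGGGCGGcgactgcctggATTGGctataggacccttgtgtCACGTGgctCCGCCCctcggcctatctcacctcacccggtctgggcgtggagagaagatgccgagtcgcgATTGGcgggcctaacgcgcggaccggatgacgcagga
CCAAT, searched on both strands, was found in 8 of the 8 genes and in 8 of their 10 windows, against 37.4% of all 32851 windows and 37.3% of the 10983 windows of genes measured here, or 43.04% of the 8529 measured genes that had a window. GGGCGG was found in 8 of 8 genes, 9 of 10 windows, against 35.7% of all windows and 64.3% of those of measured genes, or 71.6% of these genes. CACGTG was found in *Hsd17b7*, *Sc5d* and *Dhcr7*, 3 of 10 windows, against 7.15% of all windows and 10.1% of those of measured genes, or 12.1% of these genes. The sterol regulatory element TCACNCCAC and the shorter CACNCCAC contained in it were in 0 of the 8 genes, against 1.24% and 6.24% of all windows and 1.35% and 7.54% of measured genes. A looser form, TCANNCCAC, chosen after the first had found no match, was also in 0 of 8, against 4.18% of all windows and 4.46% of measured genes. A match is a run of letters and not a binding site, and its absence says only that these letters were not in these windows.

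**Figure D1:**
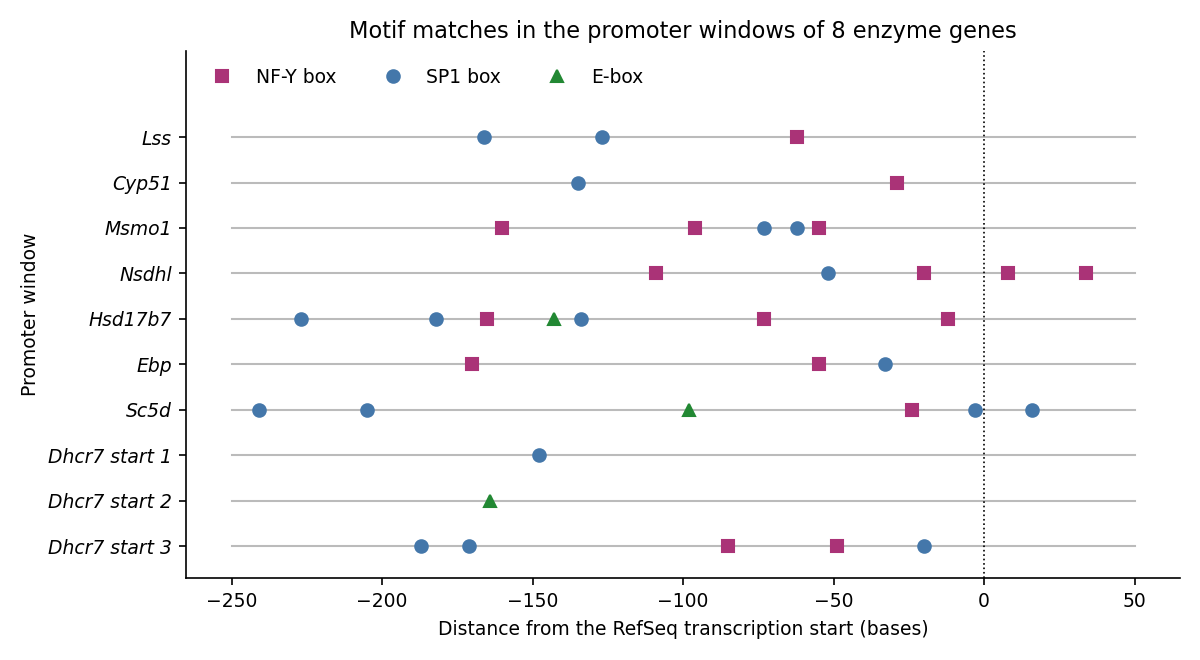
Matches of 3 motifs in the RefSeq promoter windows of 8 enzyme genes. The x axis is the distance from the transcription start in bases, each grey line is 1 window (3 for Dhcr7), and squares, circles and triangles mark the first base of an NF-Y box (CCAAT), an SP1 box (GGGCGG) and an E-box (CACGTG) on either strand. Every gene has at least 1 NF-Y box and 1 SP1 box, and 8 of the 10 windows hold an NF-Y box.

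The libraries held 5435985 to 9049796 reads in the genes measured here, as recovered from the deposited values, and 3809 to 7095 of them belonged to the 9 enzymes. Of the fibroblast markers 11 of 12 were in the table, among them *Col1a1*, *Col1a2* and *Pdgfrb*, and only *Lum* was not. All 12 macrophage markers were also in the table, and their summed level was 15970 to 17728 CPM in DMSO and 16063 to 19375 CPM in thymol, above that of the fibroblast markers (10919 to 12080 CPM in DMSO and 9933 to 10669 CPM in thymol). In each of these lists 2 markers were called (adjusted p under 0.05 in limma over all genes), all lower with thymol (*Col1a1* and *Col3a1*, *Itgam* and *Cd14*). The same threshold called 1.57% of all genes lower and 0.654% higher. Of the epithelial, adipocyte, endothelial and muscle markers, 0 of 6, 0 of 5, 1 of 5 and 2 of 5 were in the table, and 1 of them, *Acta1*, was called lower. The cultures therefore did not carry fibroblast transcripts alone. In bulk RNA, fewer cells of a type and less RNA per cell cannot be told apart, and the part of cell composition in the differences below was not tested.

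The first comparison asked which steps of the pathway had less transcript after thymol. Of the 9 enzymes, 6 fell past the threshold (adjusted p under 0.05 in limma over all genes): *Sqle*, *Cyp51*, *Msmo1*, *Nsdhl*, *Hsd17b7* and *Sc5d*. Of all 10697 genes, 1.57% were called lower and 0.654% higher, 2.22% in all. At an unadjusted p under 0.05 in the same fit *Ebp* was lower as well, making 7 of 9, against 6.44% of all genes. The differences of *Lss*, *Ebp* and *Dhcr7* did not pass. The difference was below 0 for all 9 enzymes, as for 49.1% of all genes, and its median was -0.33 on the log2 scale, against 0.0026 for all genes. For the same 6 enzymes every thymol library lay below every DMSO library, which was so for 1.16% of all genes (1.68% in either direction, 0.524% with thymol above). An exact permutation test over the 924 ways to split the 12 libraries gave each of these 6 its smallest possible p-value, 0.00216. Adjusted over all genes, even this smallest p-value came to 0.129, so the test called 0 genes (1175 had an unadjusted p under 0.05). It therefore cannot decide at this threshold whether the 6 fell. Without the mean-variance trend in limma, *Sqle*, *Cyp51* and *Sc5d* no longer passed (adjusted p = 0.067, 0.064 and 0.066), and *Sqle* no longer passed without thymol replicate 6 (adjusted p = 0.051).

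**Figure D2:**
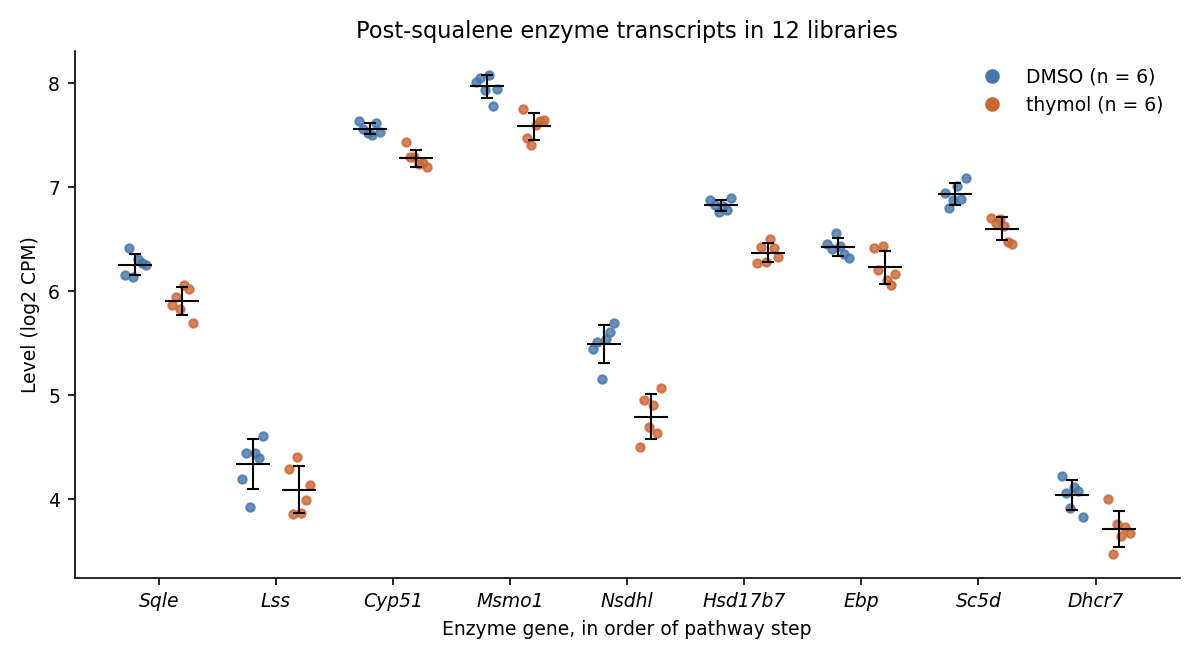
Level of each enzyme transcript in the 12 libraries, in pathway order. The y axis is log2 CPM, each point is 1 library, and the black bars are the mean ± SD of 6 DMSO (blue) or 6 thymol (orange) libraries. The thymol points sit wholly below the DMSO points for Sqle, Cyp51, Msmo1, Nsdhl, Hsd17b7 and Sc5d, and overlap with them for Lss, Ebp and Dhcr7.

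The opening steps convert the chain into lanosterol. *Sqle* (chromosome 15, 59315077 to 59331192, plus strand) encodes squalene epoxidase, which puts an oxygen onto squalene and is a rate-limiting point of the pathway. Its level in DMSO was 6.14, 6.26 and 6.41 log2 CPM (lowest, median, highest), and in thymol 5.70, 5.90 and 6.06. The mean fell from 6.26 ± 0.10 to 5.90 ± 0.14 (SD, n = 6 each), a difference of -0.35 ± 0.086 (SE, limma adjusted p = 0.010) or 21.7% (95% interval 11.8 to 30.5). The groups were apart by 0.077 at their nearest libraries. *Lss* (chromosome 10, 76531588 to 76557138, plus strand) encodes lanosterol synthase, which folds the epoxide into the sterol ring system. Its level was 3.93, 4.42 and 4.61 log2 CPM in DMSO and 3.86, 4.06 and 4.41 in thymol, and only 2 of the 6 thymol values were under the lowest DMSO value. The difference of -0.24 ± 0.16 (limma adjusted p = 0.601) had a 95% interval of -0.56 to 0.07. *Lss* was read 84 to 170 times per library, so that counting alone gives an SD of 0.12 to 0.14 on the log2 scale, compared with measured SDs of 0.24 and 0.23. A fall of the size seen in *Sqle* lies inside its interval. In the odd-numbered libraries alone the difference was 0.059 and in the even-numbered ones -0.54. The test of that gap did not pass (limma interaction, unadjusted p = 0.054, adjusted p = 0.997 over all genes).

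The next 4 enzymes remove the extra methyl groups of lanosterol, and all 4 fell. *Cyp51* (chromosome 5, 4081145 to 4104746, minus strand) encodes lanosterol demethylase, the cytochrome P450 of the pathway and the relative of the fungal enzyme blocked by azole drugs. Its level was 7.50, 7.55 and 7.64 log2 CPM in DMSO and 7.20, 7.26 and 7.43 in thymol. The difference was -0.28 ± 0.062 (limma adjusted p = 0.0035), or 17.8% (95% interval 10.5 to 24.6). Thymol replicate 1 was the highest of its group and still lay 0.072 under the lowest DMSO library. *Msmo1* (chromosome 8, 64718139 to 64733792, minus strand) encodes the methylsterol monooxygenase that oxidises the remaining methyl groups. With 7.78, 7.98 and 8.08 log2 CPM in DMSO and 7.41, 7.62 and 7.75 in thymol it differed by -0.39 ± 0.063 (limma adjusted p = 4.1e-05), or 23.4% (95% interval 16.4 to 29.9). Its groups came closest of the 6 that were apart, with 0.032 between DMSO replicate 5 and thymol replicate 1.

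*Nsdhl* (chromosome X, 72918557 to 72958514, plus strand) encodes the dehydrogenase that then cuts off the oxidised methyl carbon. It had the largest difference of the 9. Its level was 5.16, 5.53 and 5.69 log2 CPM in DMSO and 4.50, 4.80 and 5.07 in thymol, so the mean fell from 5.50 ± 0.18 to 4.80 ± 0.21, a difference of -0.70 ± 0.12 (limma adjusted p = 6.1e-05) or 38.4% (95% interval 27.5 to 47.7). In reads this was a mean of 317 per DMSO library and 178 per thymol library. The lowest DMSO library was replicate 3, and thymol replicates 1, 5 and 3 were the lowest of all. *Hsd17b7* (chromosome 1, 169949535 to 169969241, minus strand) encodes the ketosteroid reductase that ends each round of demethylation, and is also known for reducing estrone. Its 6.76, 6.82 and 6.90 log2 CPM in DMSO and 6.27, 6.38 and 6.50 in thymol left the widest gap between groups, 0.26. The difference was -0.45 ± 0.073 (limma adjusted p = 2.9e-05), or 27.0% (95% interval 19.2 to 34.0). Among the 5394 genes with a mean of at least 5 log2 CPM, *Nsdhl* stood 7th and *Hsd17b7* 34th by size of difference below 0, and among all 10697 genes, they stood 59th and 246th.

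The last enzymes rearrange and reduce the double bonds. *Ebp* (chromosome X, 8185329 to 8193512, minus strand) encodes the sterol isomerase known as emopamil-binding protein, which moves a double bond within the ring. Its level was 6.32, 6.42 and 6.56 log2 CPM in DMSO and 6.06, 6.18 and 6.43 in thymol, where replicates 1 and 3 lay among the DMSO libraries and the other 4 lay below them. The difference of -0.19 ± 0.082 was the smallest of the 9 and did not pass (limma adjusted p = 0.285; 95% interval -0.36 to -0.03). *Sc5d* (chromosome 9, 42251595 to 42264256, minus strand) encodes the sterol desaturase that follows. Its 6.80, 6.92 and 7.09 log2 CPM in DMSO fell to 6.46, 6.64 and 6.70 in thymol, a difference of -0.33 ± 0.073 (limma adjusted p = 0.0035) or 20.6% (95% interval 12.1 to 28.3). *Dhcr7* (chromosome 7, 143823145 to 143848410, plus strand) encodes the reductase of the last step, whose substrate is also the skin precursor of vitamin D. It was the enzyme with the fewest reads, 64 to 138 per library. Its level was 3.83, 4.07 and 4.22 log2 CPM in DMSO and 3.48, 3.71 and 4.00 in thymol, with 5 of the 6 thymol values under the lowest DMSO value. The difference of -0.32 ± 0.17 was close in size to that of *Sc5d* but did not pass (limma adjusted p = 0.451), with a 95% interval of -0.66 to 0.01. Counting gives an SD of 0.14 to 0.16 at this depth, near the measured SDs of 0.14 and 0.17.

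**Figure D3:**
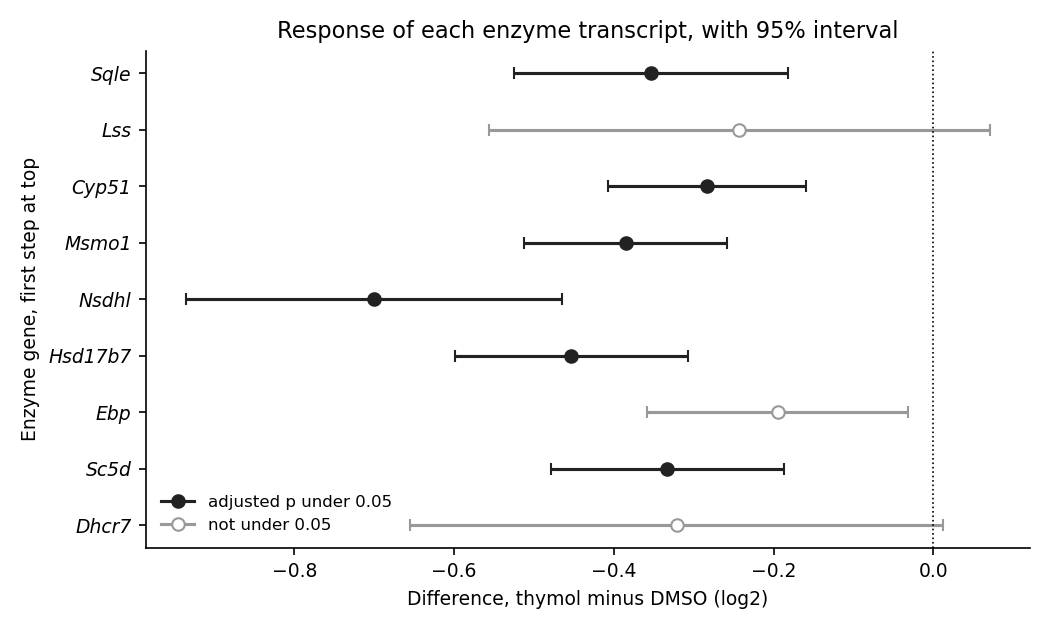
Difference of each enzyme transcript, thymol minus DMSO, with the first step at the top. The x axis is the difference in mean log2 CPM, points are limma estimates from 6 and 6 libraries, bars are 95% intervals, and filled points have an adjusted p under 0.05. Nsdhl is farthest from 0 at -0.70, and the bars of Lss and Dhcr7 cross 0.

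It was then asked whether the steps differed from each other in the size of their response. Within each library the log2 levels of a pair of enzymes were subtracted, and an exact permutation test, two-sided, was run on the result. Of the 36 pairs compared, 0 passed after adjustment over the 36 pairs (lowest adjusted p = 0.145), and 8 had an unadjusted p under 0.05, of which 6 included *Nsdhl*. The largest gap was that between *Nsdhl* and *Ebp*, -0.50 with a 95% interval of -0.89 to -0.12 (exact permutation p = 0.013). *Nsdhl* was lower by 0.46 more than *Lss* (exact permutation p = 0.0065, 95% interval of the gap 0.10 to 0.81) and by 0.42 more than *Cyp51* (exact permutation p = 0.015, 95% interval 0.11 to 0.72). These intervals come from the SD within groups and are not adjusted over the 36 pairs. The gap between *Nsdhl* and *Hsd17b7*, its neighbour both in the pathway and by size, was -0.25 with a 95% interval of -0.47 to -0.02 (exact permutation p = 0.045, adjusted p = 0.205). Between the other neighbours in size, the exact permutation p ranged from 0.433 to 0.905. *Sqle* and *Sc5d*, at opposite ends of the pathway, differed in response by -0.02 with a 95% interval of -0.23 to 0.19. No order of the steps by size of response held after adjustment.

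The levels themselves spanned a wide range. In DMSO the order was *Msmo1*, *Cyp51*, *Sc5d*, *Hsd17b7*, *Ebp*, *Sqle*, *Nsdhl*, *Lss* and *Dhcr7*, and *Msmo1* had 15.2 times the CPM of *Dhcr7*. Because the method reads 1 end of a transcript, these levels need no correction for length. *Sc5d* exceeded *Hsd17b7*, *Ebp* exceeded *Sqle*, and *Lss* exceeded *Dhcr7* in 5 of 6 libraries each with overlapping ranges, and all other neighbours in the order did not overlap. By DMSO level *Msmo1* lay at the 94.0th percentile of all genes, *Nsdhl* at the 59.9th, *Lss* at the 34.9th and *Dhcr7* at the 29.0th. Thus both *Lss* and *Dhcr7*, which did not pass, were among the 3 enzymes with the fewest reads, whereas *Ebp* had a mean of 608 reads in DMSO, more than *Sqle* with 538.

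Added together, the 9 transcripts came to 922 ± 26.2 CPM in DMSO (886 to 946) and 722 ± 25.1 CPM in thymol (703 to 771; SD, n = 6 each), so that the sum was 21.6% lower. The highest thymol sum belonged to replicate 1 and the lowest DMSO sum to replicate 3. *Msmo1* and *Cyp51* supplied 27.2% and 20.5% of the sum in DMSO, and 26.6% and 21.5% in thymol. *Nsdhl* supplied 4.92% in DMSO and 3.89% in thymol, and *Ebp* 9.34% and 10.4%.

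**Figure D4:**
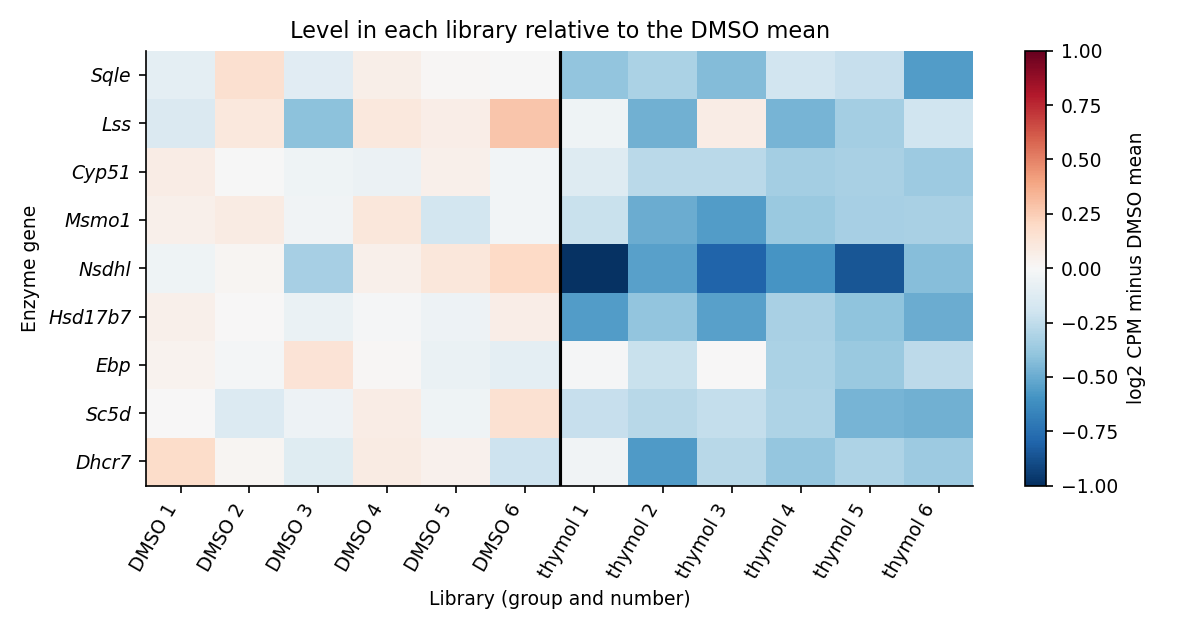
Level of each enzyme transcript in each library relative to its DMSO mean. Rows are enzymes in pathway order, columns are the 6 DMSO and 6 thymol libraries, and colour gives log2 CPM minus the DMSO mean from -1 (blue) to 1 (red). The thymol side is blue for nearly all enzymes, darkest for Nsdhl, and only Lss and Ebp in replicate 3 lie above their DMSO mean.

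Once the group means were taken away, correlations between the enzymes lay on both sides of 0. Pearson's r between pairs of enzymes had a median of 0.03 over the 36 pairs, ran from -0.75 (*Hsd17b7* and *Ebp*) to 0.63 (*Cyp51* and *Dhcr7*), and was above 0 for 19 pairs. These are descriptions over 12 libraries that share the TMM scaling, and counting error makes up part of the spread of each gene.

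The remaining genes of the pathway were taken from lists. Of 4 other post-squalene genes 2 fell, against 1.57% of all genes called lower. Their median difference was -0.39, against 0.0026 for all genes. *Erg28*, which tethers the demethylating enzymes into a complex, differed by -0.31 ± 0.085 (adjusted p = 0.031), a call that was lost on leaving out any 1 of 7 of the 12 libraries (adjusted p up to 0.098). *Tm7sf2* and *Lbr* encode alternative reductases of the double bond left by Cyp51. Their differences were -0.46 (adjusted p = 0.556) and 0.09 (adjusted p = 0.844), and *Tm7sf2* was low, with 1.50 to 3.16 log2 CPM over the 12 libraries.

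Of the 9 listed genes of the mevalonate arm, which builds squalene from acetyl-CoA, 8 were in the table. Of these 4 fell, against 1.57% of all genes called lower. All 8 differences were below 0, as for 49.1% of all genes, with a median of -0.45 (0.0026 for all genes). *Hmgcs1*, which makes HMG-CoA, fell by 0.48 on the log2 scale (adjusted p = 8.6e-07). *Fdps*, which makes farnesyl pyrophosphate, had a difference of -0.56 (adjusted p = 0.0012), and *Mvd*, the mevalonate pyrophosphate decarboxylase, of -0.58 (adjusted p = 0.0035). *Acat2*, the thiolase at the entry, had a difference of -0.43 (adjusted p = 0.017), which did not pass without DMSO replicate 1 (adjusted p = 0.068) or DMSO replicate 3 (adjusted p = 0.059).

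The oxidative steps draw electrons from cytochrome P450 reductase and cytochrome b5. Of 5 genes for these donors 0 were called by limma, which does not set them apart from all genes, of which 2.22% were called. *Por*, the reductase that serves both Sqle and Cyp51, differed by -0.09 (adjusted p = 0.622). *Cyb5a* (-0.08), *Cyb5b* (-0.10), *Cyb5r1* (0.05) and *Cyb5r3* (-0.05) had adjusted p-values of 0.565 to 0.870. The median of the list was -0.083. Of 5 genes known for control of the enzyme proteins, 0 were called, again near the 2.22% of all genes, with a median difference of -0.0019. *March6*, the ubiquitin ligase that degrades Sqle when cholesterol is plentiful, differed by -0.16 (adjusted p = 0.671), *Ube2j2*, a ubiquitin-conjugating enzyme, by -0.0019. *Usp20*, a deubiquitinase, differed by 0.21 (adjusted p = 0.620) and *Pgrmc1*, a haem-binding partner of Cyp51, by -0.0082.

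Of 10 genes for SREBP control and sterol uptake 2 fell, against 1.57% of all genes, and their median difference was -0.24. *Insig1*, which holds SREBPs in the endoplasmic reticulum and is itself one of their targets, differed by -0.65 ± 0.18 (adjusted p = 0.027). Thymol replicate 2 stood at 2.82 log2 CPM for *Insig1*, below 3.71 in the next library, and without it the difference was -0.47 and did not pass (adjusted p = 0.141). The call was also lost without DMSO replicate 1, 2 or 5 (adjusted p = 0.086, 0.051 and 0.060). Of 7 measured genes for the fate of cholesterol and its intermediates 1 fell, against 1.57% of all genes. It was *Abca1*, a cholesterol exporter, with a difference of -0.34 ± 0.079 (adjusted p = 0.0080). *Abcg1*, another exporter, is named here after its values were seen: it differed by 0.74 ± 0.22 in the opposite direction and did not pass (adjusted p = 0.054). The median of this list was 0.047.

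**Figure D5:**
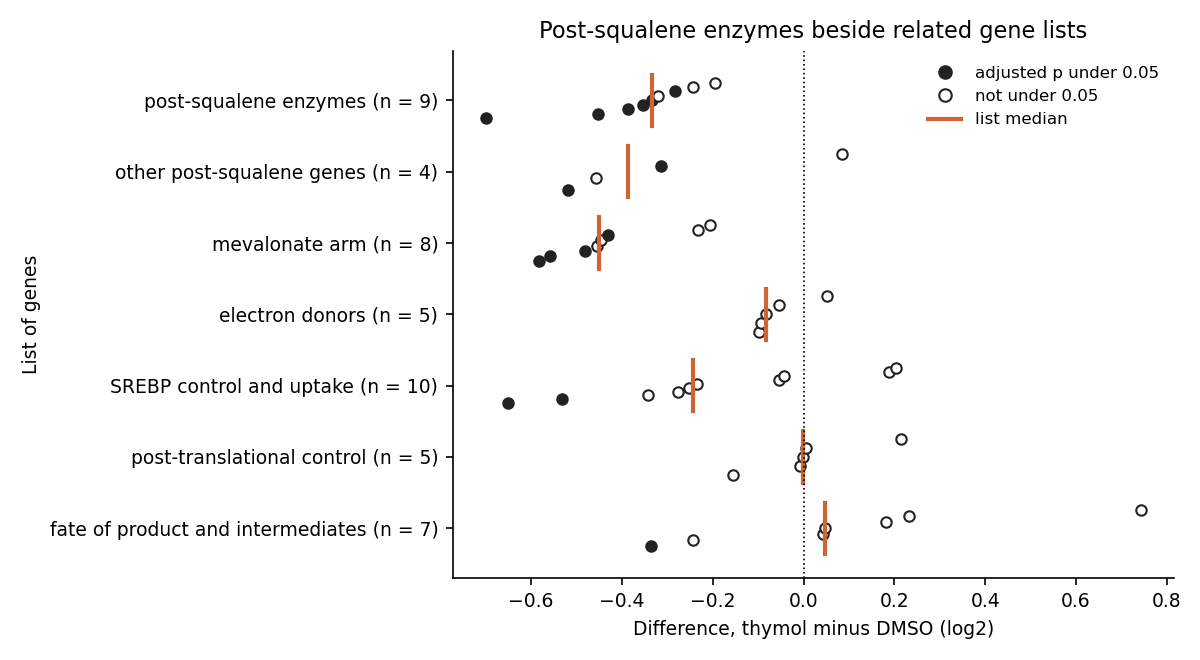
Differences of single genes in the 9 enzymes and in 6 related lists. The x axis is the difference in mean log2 CPM, thymol minus DMSO, each circle is 1 gene (filled where the limma adjusted p is under 0.05), and orange bars are list medians. The medians of the post-squalene enzymes (-0.33), other post-squalene genes (-0.39), the mevalonate arm (-0.45) and SREBP control and uptake (-0.24) lie left of 0. Those of the electron donors (-0.083), of post-translational control (-0.0019) and of the fate of product and intermediates (0.047) lie near it.

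Genes that lie against the enzymes were read for the overlap of reads and of promoters. The 3′ end of *Cyp51* overlaps that of *Akap9* on the other strand by 166 bp, and *Akap9* had 7.10 ± 0.053 log2 CPM in DMSO and 7.12 ± 0.17 in thymol (difference 0.02 ± 0.070, adjusted p = 0.956). The library kit keeps the strand, but the strand setting used in counting is not given in the sources used here. How reads of the overlap were assigned, or whether they were counted, is therefore not known. *Nsdhl* starts 145 bp from *Cetn2*, a centrin gene that is transcribed the other way. At the far end of the *Nsdhl* stretch printed above, *Cetn2* had 5.74 ± 0.15 log2 CPM in DMSO and 5.72 ± 0.17 in thymol (difference -0.02 ± 0.097, adjusted p = 0.970), so that of this divergent pair *Nsdhl* fell and *Cetn2* was not called; the difference between them was not tested. *Porcn*, 335 bp from *Ebp*, differed by -0.43 ± 0.28 (adjusted p = 0.612). *Lss* is overlapped by the antisense gene *4930483K19Rik*, which is not among the genes measured here.

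Finally, the genes whose pattern over the 12 libraries was most like the mean z-score of the 9 enzymes were sought among 5387 other genes with a mean of at least 5 log2 CPM. They were *Col3a1*, a fibrillar collagen (Pearson r = 0.97), *Pde4b*, a cyclic AMP phosphodiesterase (0.96), *Serpinb9b*, a serine protease inhibitor (0.95), *Ccl9*, a chemokine (0.95), and *Hmgcs1* (0.95). These values hold the difference between groups. With the group means taken away, r was 0.52, 0.40, 0.33, 0.46 and 0.34 in the same order. This is no separate check, since the r that picked the genes also holds the variation within groups. Of these genes, *Col3a1* is also 1 of the 2 fibroblast markers that fell (difference -0.54), with *Col1a1* (-0.28). The 11 measured fibroblast markers had a median difference of -0.13. *Pdgfra* (0.33), *Fn1* (0.08) and *Pdgfrb* (0.0021) lay above 0, the others below it. *Col1a1* was the most abundant of them (11.95 log2 CPM in DMSO) and so weighs most in their sum. The summed fibroblast markers did not overlap between groups, as given above, and the part of this shift in the enzymes' differences was not tested.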

How the data were processed

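RNA-seq by QuantSeq was available for 12 libraries of MAFs, 6 treated with thymol and 6 with DMSO, grouped by the labels. The authors aligned reads to GRCm38 with STAR 2.5.3, counted them with HTSeq 0.6.1, state a filter of at least 30 reads in 6 samples, applied TMM scaling and tested with edgeR. The deposited values are log2 CPM with a prior count, and such a prior draws genes with few reads towards a difference of 0. Undoing the logarithm gave whole reads (100% of values under 200 reads within 0.02 of a whole number). Of the deposited genes, 98.0% met the stated filter on these reads, and the lowest sixth-highest count of a gene was 9. The reads are PCR products, and the SDs that counting gives were worked out from them and cover counting error only. The intervals given for differences rest instead on the spread of log2 values between libraries.

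The log2 values were tested with limma 3.58.1 in R 4.3.3 (lmFit, eBayes with a mean-variance trend, no covariate, two-sided), adjusted by Benjamini-Hochberg over all 10697 genes with a threshold of 0.05. Adjusted p-values in the text are from limma unless a permutation test is named. Intervals are 95%. Single values were compared by exact permutation. The fits were tested on simulated data. The alternatives were other variance models, pseudocounts of 1 and 10, a filter on a mean of at least 5, other scalings, voom on the recovered reads, permutation, a block, and fewer libraries. The enzymes, lists and markers were chosen with earlier results of these data known. Named genes are the 9 enzymes, every called gene of the other lists, all genes of lists with 5 or fewer measured, and the 5 genes most like the enzymes; 3 of the genes this rule names are counted in their lists but not reported here. Gene coordinates are from GENCODE vM21 and promoter sequences from RefSeq, both on GRCm38. Protein sequences were not used here.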

Additional observations from a re-analysis of the deposited data

Results flagged for a closer look

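In groups of 6 libraries, a value was set apart where its gap to the nearest other library, as a share of the range of the group, was over Dixon's 95% critical value. Of 100 groups tested, 9 met this, where chance gives about 1 in 20, or 5.0. In the summed level of the 9 enzymes, thymol replicate 1 stood at 771 CPM, above 726 in the next library. In recovered reads, thymol replicate 5 stood at 9049796, above 6585162. No single enzyme of the 9 was set apart in this way. Among the other pathway genes, *Insig1* was at 2.82 log2 CPM in thymol replicate 2 (next 3.71), *Erg28* at 6.27 in thymol replicate 4 (next 6.04), *Acat2* at 5.36 in thymol replicate 1 (next 5.11), *Cyb5b* at 7.57 in thymol replicate 3 (next 7.43) and *Pgrmc1* at 6.45 in thymol replicate 5 (next 6.19). In DMSO, *Cyb5r3* was at 8.39 in replicate 2 (next 8.54) and *Npc1* at 6.72 in replicate 5 (next 7.01). With thymol replicates 1 and 5 both left out, a choice made after the data were seen, the same number of the 9 enzymes passed the threshold, 6.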

How the results depend on the processing

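With 1 library left out at a time, the differences ranged from -0.39 to -0.31 for *Sqle*, -0.32 to -0.19 for *Lss*, -0.31 to -0.27 for *Cyp51*, -0.42 to -0.35 for *Msmo1*, -0.77 to -0.64 for *Nsdhl*, -0.48 to -0.43 for *Hsd17b7*, -0.24 to -0.16 for *Ebp*, -0.36 to -0.30 for *Sc5d* and -0.38 to -0.27 for *Dhcr7*. The enzymes called numbered 5 to 6, the other post-squalene genes 1 to 2, the mevalonate arm 3 to 4, SREBP control and uptake 1 to 3, and all genes 172 (without thymol replicate 6) to 270 (without thymol replicate 1). Without the mean-variance trend the differences of *Sqle* (-0.35), *Cyp51* (-0.28) and *Sc5d* (-0.33) no longer passed, and the counts became 3 enzymes, 1 other post-squalene gene, 2 of the mevalonate arm, 1 of SREBP control and uptake, 0 for cholesterol fate and 57 genes in all. In the odd-numbered libraries alone (3 against 3) *Sqle* (-0.28), *Cyp51* (-0.27), *Msmo1* (-0.31) and *Sc5d* (-0.28) no longer passed, *Lss* turned to 0.059, and the counts were 2, 1, 2, 1, 0 and 70 in the same order. In the even-numbered ones *Sqle* (-0.43) and *Cyp51* (-0.30) no longer passed, and 1 other post-squalene gene, 2 of the mevalonate arm and 1 of SREBP control and uptake did. Fewer libraries were in these fits. The exact permutation test per gene kept the differences of *Sqle* (-0.35), *Cyp51* (-0.28), *Msmo1* (-0.39), *Nsdhl* (-0.70), *Hsd17b7* (-0.45) and *Sc5d* (-0.33) but gave each an adjusted p of 0.129 and called 0 in every list and in all genes; 924 relabellings set its smallest p. Limited to genes with a mean of at least 5, SREBP control and uptake had 1 call, since *Insig1* was not tested there, nor were *Lss* and *Dhcr7*. Without thymol replicates 1 and 5 the other post-squalene genes had 1 call. For the rest of these changes the cause was not tested. *Nsdhl* and *Hsd17b7* passed under every alternative but the permutation test, and 0 of 36 pairs passed under any alternative run. With 10 added before the logarithm, *Lss* was at -0.16 and *Dhcr7* at -0.19.

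Library numbers are shared between the groups, but deviations of same-numbered libraries correlated at -0.05 to 0.27 over 5394 genes, and not every library correlated best with its own number, so that they were not taken as pairs. With the replicate block 6 enzymes passed and 332 genes in all, against 238 without it. The differences themselves stayed as they were (*Nsdhl* -0.70). In the sign-flip permutation test 0 of 36 pairs passed. That test has few possible sign flips, and its smallest p is too large for a few pairs to pass after adjustment. Its result therefore says little about the pairs. *Lss* and *Dhcr7* had the fewest reads of the 9 enzymes (64 to 170 per library), and differences of the size of *Sqle* lie within their intervals; the measured SDs of *Lss* (0.24 and 0.23) were above those that counting gives (0.12 and 0.14).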
